A study of Mus musculus with 191 samples.

Results

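The chitinase and chitinase-like genes Chia1, Chil1, Chil3 and Chil4 were followed in the lungs of mice exposed to chemicals. They are 4 of the 18194 genes that the array annotation names by a probe set of 1 symbol. Their probe sets were those that this annotation assigns to these 4 symbols alone, under their current or former names (Chia, Chi3l1, Chi3l3 and Chi3l4). This gave 5 probe sets of 45101 on the array. Chia1, Chil1, Chil3 and Chil4 each have a probe set of their own, and the fifth is assigned to Chil3 and Chil4 together and is called the shared probe set here. All 5 passed the filter on low values, as did 27904 probe sets in all.

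Chitinases of glycosyl hydrolase family 18 cleave chitin, the polymer of fungal walls, insect cuticle and mite bodies, which mammals do not make. Chia1 encodes acidic mammalian chitinase, the active enzyme of the group, which is secreted in mouse lung and stomach. The chitinase-like proteins bind sugar polymers but have lost the catalytic residues. Chil1 encodes BRP-39, the mouse counterpart of human YKL-40, made by macrophages and epithelium, and Chil3 encodes Ym1, an abundant product of alveolar macrophages. Chil4 encodes Ym2, a close relative of Ym1 known from allergic airway inflammation. Chia1 and Chil3 are also known as genes that rise under interleukin-4 and interleukin-13, the cytokines of type 2 immunity.

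The study measured 1 array for each lung of female B6C3F1 mice, a cross of C57BL/6 and C3H, on an Affymetrix mouse genome array, with 133 lungs in 34 exposed groups and 58 lungs in 14 vehicle control sets. The 26 chemicals were given for 13 weeks by inhalation (6 hours a day, 5 days a week), by gavage (5 days a week) or in feed (7 days a week), to animals that were 18 weeks old at the end. RNA came from the right lobe, so fewer cells of a type and less RNA per cell cannot be told apart. Groups held 3 to 5 lungs and the arrays fell into 4 array batches. The groups described most closely inhaled 2 mg/m3 vanadium pentoxide (4 lungs), naphthalene at 0.5, 3, 10, 20 or 30 ppm (4 lungs each), or methylene chloride at 100 (5 lungs), 500, 2000, 3000 or 4000 ppm (4 lungs each). Their vehicle controls, which breathed air, are the sets ACO3 (4 lungs), ACO4 (5 lungs) and ACO5 (5 lungs) of the same array batch. The labels do not say which of these air sets ran beside which chemical, and a member was called only when it passed the test against all of them in 1 direction. The labels number animals but give no cage or day, so p-values measure the spread between lungs.

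Values are deposited on a log scale centred near 0 for each array and were read as log2, a base that no source used here states. Club and alveolar type 2 cell markers, which define the bronchiolar and alveolar lining, were high in these lungs: the mean of 10 alveolar type 2 markers lay between 4.89 and 5.35 in the 14 air lungs, against a median of -0.39 over all deposited values. Array 4 of ACO4 had the lowest correlation with the rest of its group of any array in the series (0.955), and array 3 of ACO4 and array 3 of ACO5 also lay under 0.98. In the text a lung is named by its group and by a number that carries no order.

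Chia1, Chil3 and Chil4 lie beside each other on chromosome 3 and Chil1 lies apart on chromosome 1 (mouse build GRCm38.p6, RefSeq). Chia1 spans chr3:106113382-106132118 on the plus strand, Chil3 spans chr3:106147554-106167564 and Chil4 spans chr3:106201491-106219479, both on the minus strand, and Chil1 spans chr1:134182156-134190031 on the plus strand. The RefSeq start windows of the neighbours Chil3 and Chil4 are printed because these genes are the pair that shares a probe set, while Chil3 was called with vanadium pentoxide and Chil4 with naphthalene. Each window runs from 250 bases before the annotated start to 50 bases after it, 5′ to 3′ on the minus strand. Capitals mark the motif TTCNNNGAA, a palindrome bound by STAT-family factors, and the TATA box TATAAA.
Chil3 (chr3:106167515-106167814): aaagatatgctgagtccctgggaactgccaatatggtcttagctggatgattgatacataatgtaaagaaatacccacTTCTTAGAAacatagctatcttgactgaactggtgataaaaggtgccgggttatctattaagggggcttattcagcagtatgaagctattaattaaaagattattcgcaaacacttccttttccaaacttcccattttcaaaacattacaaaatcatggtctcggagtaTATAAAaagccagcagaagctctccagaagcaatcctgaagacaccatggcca
Chil4 (chr3:106219430-106219729): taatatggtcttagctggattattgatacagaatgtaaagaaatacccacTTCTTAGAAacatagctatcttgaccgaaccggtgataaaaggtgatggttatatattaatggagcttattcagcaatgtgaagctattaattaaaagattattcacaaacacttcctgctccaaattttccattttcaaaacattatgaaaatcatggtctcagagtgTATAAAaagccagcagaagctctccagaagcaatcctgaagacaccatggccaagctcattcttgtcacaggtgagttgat

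Over a global alignment of 329 columns, 252 bases of the Chil3 and Chil4 windows were identical (76.6%), against 60.4% for Chia1 and Chil4, the next highest pair, and 48% for Chia1 and Chil3. Columns with a gap count as not identical, so the share of paired bases that match is higher than these percentages. The Chil3 and Chil4 windows of 300 bases are offset, as the motif distances show. Both windows hold TTCTTAGAA, in Chil3 172 bases and in Chil4 200 bases before the start, and TATAAA, which begins 3 bases before the start annotated for Chil3 and 31 bases before that of Chil4. The PU.1-type letters AGGAAGT were present in both on the opposite strand. Searched on both strands, TTCNNNGAA was found in 8.3% of 32851 RefSeq windows of this length, TATAAA in 13.6% and AGGAAGT in 9.35%. The Chia1 window holds TATAAA and no TTCNNNGAA, and the Chil1 window holds neither. The form of this palindrome with a spacer of 4 bases, the type bound by STAT6, was in none of the 4 windows and in 6.95% of all windows. These matches describe letters only.

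Across 34 exposures and 5 probe sets, 170 comparisons were made. Of these, 7 passed the test and all 7 were higher in the exposed lungs, in 3 exposures: vanadium pentoxide and naphthalene at 20 and 30 ppm. Over the same 34 exposures and all tested probe sets, 1.84% of comparisons were called higher and 0.881% lower. Chia1 and Chil3 rose with vanadium pentoxide, while Chil1 and Chil4 passed with naphthalene. Chia1 had positive log2 fold changes in 23 of the 34 exposures and Chil3 in 10 of them, and only the called ones are treated as changes. Outside the 3 exposures, the largest log2 fold change was that of Chia1 with coumarin (200 mg/kg by gavage in corn oil), 0.66 with limma's adjusted p of 0.0854 against the weaker of its 2 corn oil sets. It depended on the processing: limma called it after quantile normalization within the array batch (0.79, adjusted p of 0.00861) and with the 2 corn oil sets pooled (adjusted p of 0.0109).

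**Figure D1:**
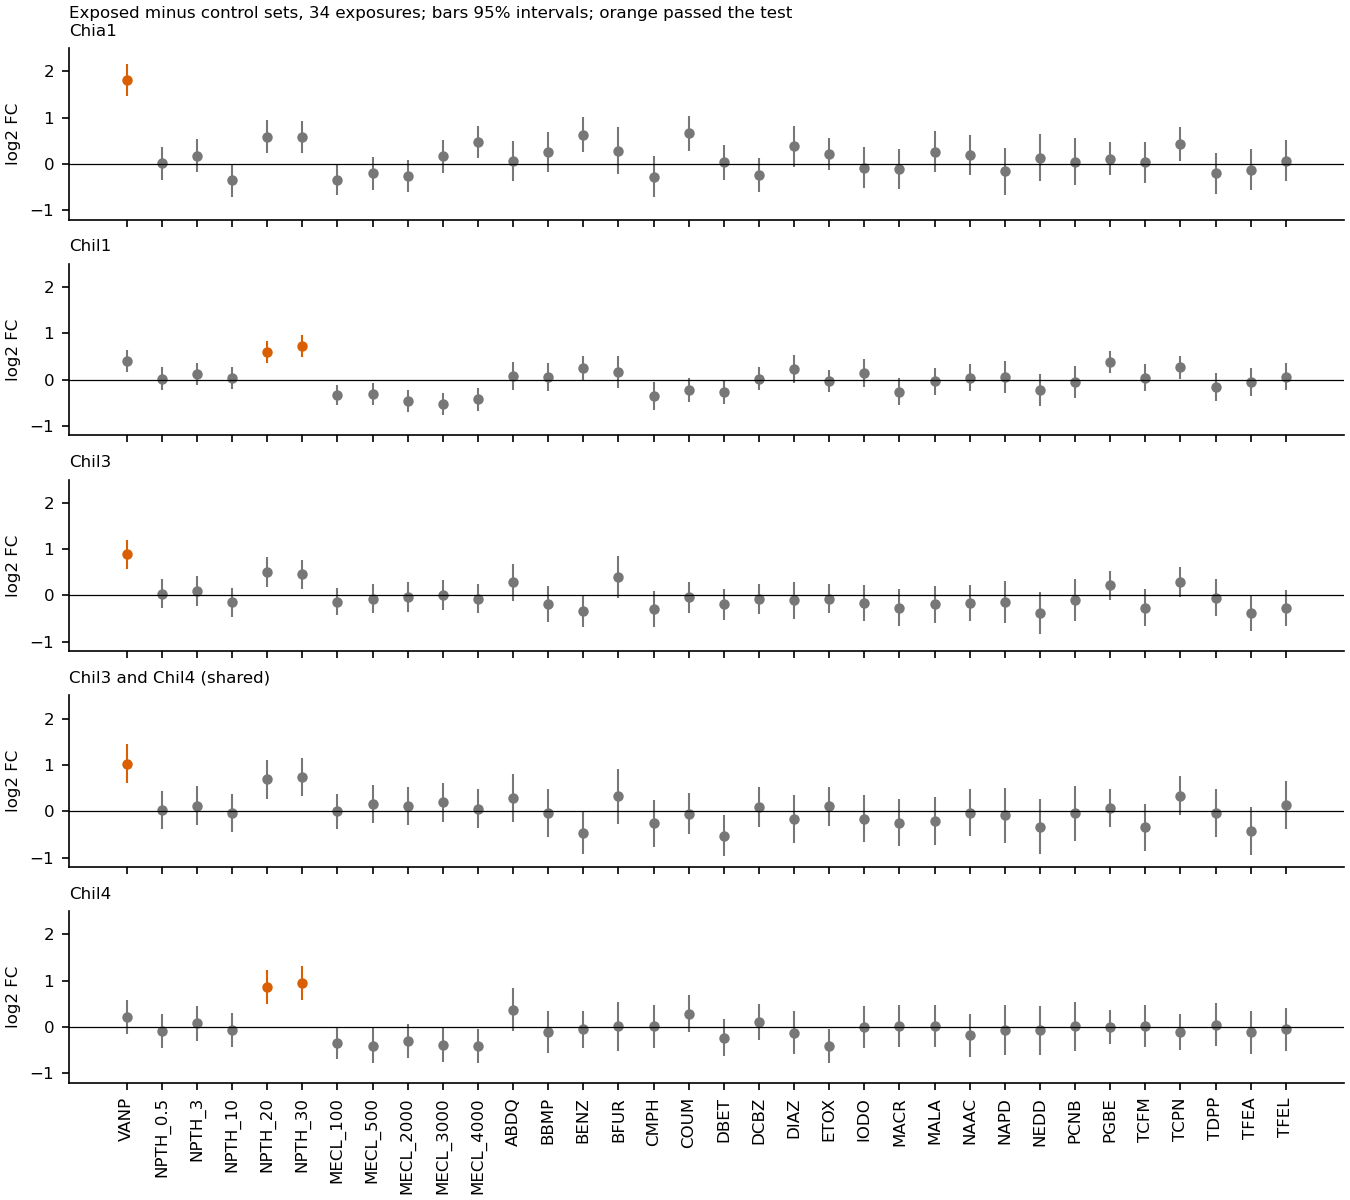
Log2 fold change of each probe set (points) with its 95% interval (bars) for 34 exposures, exposed lungs minus the average of their matching vehicle sets. Orange points passed the test against every control set: Chia1, Chil3 and the shared probe set with vanadium pentoxide (VANP), and Chil1 and Chil4 with naphthalene at 20 and 30 ppm (NPTH_20, NPTH_30).

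Control sets that received no chemical give the background of these genes. Among 5 comparisons between matching control sets (25 tests), limma called none and none had an unadjusted p under 0.05, and the largest difference was 0.36 on the log2 scale. For 4 of the 5 probe sets the means of the 14 control sets spread by 0.24 (Chil1) to 0.61 (Chia1). For Chil4 they were the same within 4e-06, all at -0.75. Its test in each of the 5 control comparisons therefore could not have passed and says nothing of its background. Only 12 of the 45101 probe sets had control-set means that agreed within 1e-04, and the median spread over all probe sets was 0.16. For Chil4 the comparisons with ACO3, ACO4 and ACO5 therefore have 1 control level in common, and passing against every air set carries no more than passing against any of them.

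This equality of means came with unequal arrays. In ACO4, lung 1 had a Chil4 value of 0.75 and the 4 other lungs lay between -1.23 and -1.02. All 25 lungs exposed to ethylene oxide (100 ppm) or methylene chloride, which share the array batch, lay between -1.24 and -0.77, and 22 of them were at or below the highest of those 4 ACO4 lungs. Of the 108 other exposed lungs, 2 lay that low, and their median was -0.76. How the level of the control sets was set by the processing is not given in the sources used here, and its part in the Chil4 values was not tested.

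Chia1, the active chitinase, was the member that rose most with vanadium pentoxide. Its values were 5.30, 4.73, 5.03 and 4.85 in the 4 vanadium pentoxide lungs, against a lowest value of 2.60, a median of 3.22 and a highest of 3.58 in the 14 air lungs. Every exposed lung lay above every air lung, and the number of tested probe sets that separate in this way was not counted. The log2 fold change was 1.81 ± 0.18 (SE), a 3.52-fold rise, with limma's adjusted p of 3.55e-10 against the weakest air set. In this exposure 2.52% of all tested probe sets were called higher, and Chia1 was called with 2 other of the 5 probe sets. Its log2 fold change ranked 5 from the top of all 27904 probe sets tested.

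Chil3, which encodes Ym1, rose as well. Its values were 5.46, 5.41, 5.66 and 5.42 in the vanadium pentoxide lungs and 4.33, 4.56 and 5.11 (lowest, median and highest) in the 14 air lungs. The groups did not overlap, and the highest air value was that of ACO5 lung 3, which stood apart from the other 4 lungs of its set. The rise was 0.89 ± 0.16 on the log2 scale (limma, adjusted p of 0.000784), or 1.85-fold. The shared probe set had 4.95, 4.91, 5.20 and 4.86 in the vanadium pentoxide lungs, against 3.63, 3.94 and 4.55 (lowest, median and highest) in air lungs. It rose by 1.03 ± 0.21 on the log2 scale (limma, adjusted p of 0.00959), but its adjusted p was 0.0508 without vanadium pentoxide lung 3.

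Chil4 and Chil1 did not pass with vanadium pentoxide. Chil4 was -0.55, -0.54, -0.48 and -0.61 in the exposed lungs, inside the air range of -1.23 to 0.75, with a log2 fold change of 0.21 (95% interval -0.16 to 0.58). Of the 2 genes that the shared probe set can report, Chil3 alone was called. Chil1 was 4.62, 4.68, 5.06 and 4.60 in the exposed lungs, all above the air lungs, whose highest value was 4.52. Its log2 fold change was 0.40 ± 0.12, with an adjusted p of 0.216 by limma against the weakest air set. Against ACO3 alone, the air set whose labels give its concentration in mg/m3 as those of vanadium pentoxide do, the value was 0.47 with an adjusted p of 0.0447. Against ACO4 alone it was 0.42 (adjusted p of 0.048), and against ACO5 alone, the set that it did not pass, 0.32 (adjusted p of 0.216).

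**Figure D2:**
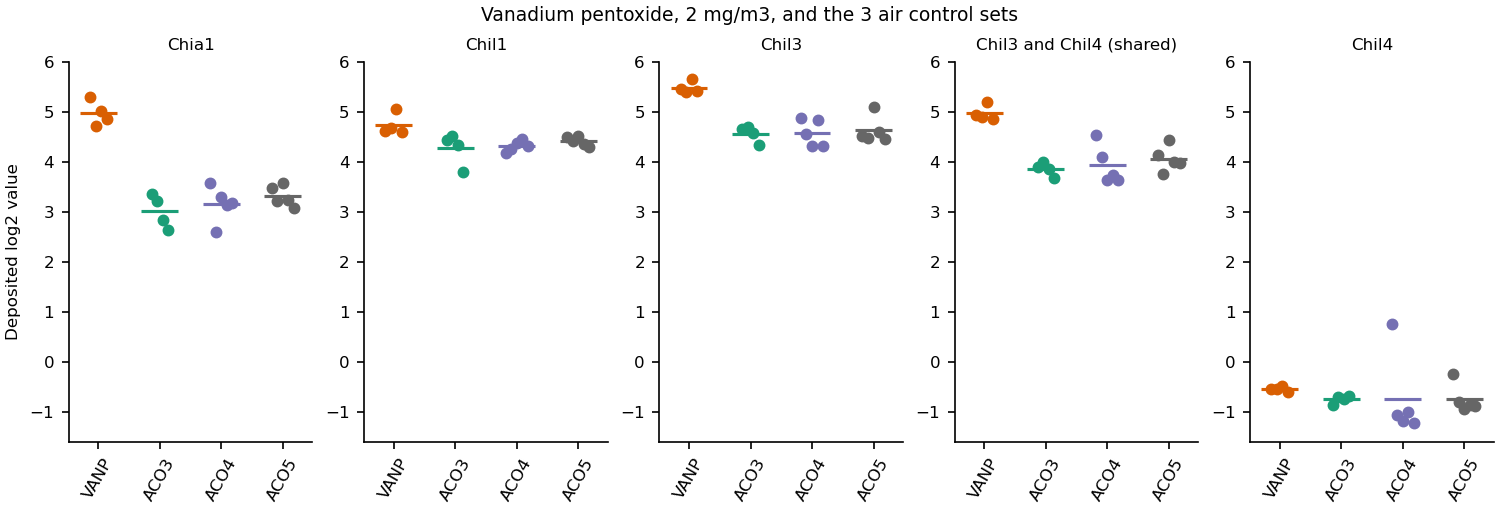
Deposited log2 value of each lung (points) with the group mean (lines), for the 4 vanadium pentoxide lungs (VANP) and the 3 air control sets (ACO3, ACO4, ACO5), 1 panel for each probe set. The exposed lungs stand above every air lung for Chia1, Chil1, Chil3 and the shared probe set, and Chil4 stays inside the air range. Chil1 did not pass the test. The share of all tested probe sets that separate in this way was not counted.

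Macrophage and alveolar type 2 markers moved with the chitinases in the vanadium pentoxide lungs. Of 10 monocyte and recruited macrophage markers tested, 7 rose, with a median log2 fold change of 0.67 against -0.01 over all tested probe sets. Mmp12, the macrophage elastase, rose by 2.19, Gpnmb, a glycoprotein of lipid-laden macrophages, by 1.06, the lysosomal protein Cd68 by 0.94 and the complement subunit C1qc by 0.75 on the log2 scale. The mean level of these 10 markers lay between 1.25 and 1.46 in the exposed lungs, against 0.45 to 0.87 in the air lungs. Of 15 alveolar macrophage markers, 5 rose, among them the protease Ctsk (2.16), Plet1 (0.84), Krt79 (0.80) and the scavenger receptor Olr1 (0.75). Siglecf, a surface lectin that defines alveolar macrophages, had -0.22 (adjusted p of 0.679) and Marco, a scavenger receptor, 0.22 (adjusted p of 0.623).

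Of 10 alveolar type 2 markers, 5 rose with vanadium pentoxide, with a list median of 0.45. Napsa, the aspartic protease that processes surfactant proteins, rose by 0.97, the transcription factor Etv5 by 0.85, surfactant protein Sftpd by 0.53 and the phosphate transporter Slc34a2 by 0.50 on the log2 scale. Their mean level was 5.62 to 5.81 in the exposed lungs and 4.89 to 5.35 in the air lungs. Of the 3 tested genes listed as binding partners of Chil1, 2 rose: Lgals3, which encodes galectin-3 (0.82), and the hyaluronan receptor Cd44 (0.62). What part these cells have in the rise of Chia1 and Chil3 was not tested.

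Type 2 immune genes were read beside the 2.52% of all tested probe sets that were called higher with vanadium pentoxide. Of 15 other genes of alternative activation and type 2 responses, 2 rose: Slc26a4, which encodes the anion exchanger pendrin (1.39), and the chemokine Ccl22 (0.31). Retnla had 0.90 with an adjusted p of 0.276, and none of 6 tested type 2 cytokine, alarmin and receptor genes passed. Il4, Il5, Il25, Tslp and Il13ra2 did not reach the filter on low values, and Il1rl1 had no probe set of its own. The neutrophil collagenase Mmp8 (1.07) was the only one of 10 neutrophil markers called. None of the 3 tested mast cell markers (Mcpt4, Cma1 and Tpsb2) or of 10 club cell markers passed. Neither did any of the relatives Chit1, Chid1 and Ctbs, or of 4 tested salivary and stomach markers (Amy1, Gkn2, Tff1 and Tff2). The other salivary and stomach markers, of 12 listed, did not reach the filter on low values. No eosinophil marker was tested: Epx, Prg2, Ccr3 and Il5ra did not reach that filter, and Ear6 had no probe set of its own.

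With naphthalene, the coal-tar hydrocarbon that club cells convert to a toxic epoxide, the chitinase-like genes were highest at 20 and 30 ppm. Chil1 was 4.83, 5.11, 4.94 and 4.90 in the 4 lungs at 20 ppm and 5.17, 5.05, 5.04 and 4.97 in the 4 lungs at 30 ppm, against 3.79, 4.37 and 4.52 (lowest, median and highest) in the 14 air lungs. All 8 lungs lay above every air lung. The log2 fold change was 0.61 ± 0.12 at 20 ppm (limma, adjusted p of 0.0198) and 0.72 ± 0.12 at 30 ppm (adjusted p of 0.00178), a 1.52-fold and a 1.65-fold rise. The share of all tested probe sets called higher was 0.821% at 20 ppm and 1.1% at 30 ppm, and 2 of the 5 member probe sets were called at each. In Chil1, the 4 lungs that inhaled 1200 ppm propylene glycol mono-t-butyl ether also lay above every air lung. Chil1 did not pass there (log2 fold change 0.38, adjusted p of 0.175 by limma), but it did with the air lungs pooled as 1 group (adjusted p of 0.0246).

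As each of the 18 arrays was left out, the call of Chil1 was lost for 4 of them at 20 ppm and for none at 30 ppm. Without lung 2 of the 20 ppm group, its log2 fold change was 0.55 with an adjusted p of 0.116 by limma. Without lung 3 of that group, ACO3 lung 4 or ACO5 lung 5, the adjusted p was 0.0543, 0.0547 and 0.0571.

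Chil4 passed at both concentrations through single lungs. Its values were -0.57, 2.40, -0.66 and -0.76 at 20 ppm and -0.35, 0.07, -0.52 and 1.57 at 30 ppm, against -1.23, -0.87 and 0.75 (lowest, median and highest) in the air lungs. At 20 ppm lung 2 was high and the 3 other lungs lay inside the air range, and at 30 ppm only lung 4 lay above the highest air lung. The log2 fold change was 0.85 ± 0.19 at 20 ppm (limma, adjusted p of 0.0175) and 0.95 ± 0.19 at 30 ppm (adjusted p of 0.00523). Without lung 2, the value at 20 ppm was 0.088 with an adjusted p of 0.903, and without lung 4, the value at 30 ppm was 0.49 with an adjusted p of 0.562. Leaving out ACO3 lung 1, ACO4 lung 3 or ACO4 lung 5 also ended the call at 20 ppm, with adjusted p of 0.0641, 0.0718 and 0.0584. Fitted to the arrays of the comparison alone, Chil4 had an adjusted p of 0.458 at 20 ppm and 0.422 at 30 ppm.

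Chia1, Chil3 and the shared probe set did not pass at 20 or 30 ppm when each air set had to be passed. Chia1 was 3.36, 4.91, 3.36 and 3.39 at 20 ppm, where lung 2 alone was above the highest air lung of 3.58, and 3.92, 3.87, 3.64 and 3.56 at 30 ppm, with 3 of 4 lungs above it. Its log2 fold change was 0.59 (95% interval 0.24 to 0.94, adjusted p of 0.302) at 20 ppm, or 0.21 without lung 2, and 0.58 (0.23 to 0.94, adjusted p of 0.513) at 30 ppm. Chil3 was 4.90, 5.72, 4.80 and 5.00 at 20 ppm and 5.01, 5.26, 5.01 and 4.94 at 30 ppm, and 1 lung at each lay above the highest air lung. Its log2 fold changes were 0.51 at 20 ppm, or 0.30 without lung 2, and 0.46 at 30 ppm. The shared probe set had log2 fold changes of 0.68 at 20 ppm, or 0.41 without lung 2, and 0.74 at 30 ppm, and its 4 lungs at 30 ppm, from 4.56 to 4.81, lay above every air lung.

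**Figure D3:**
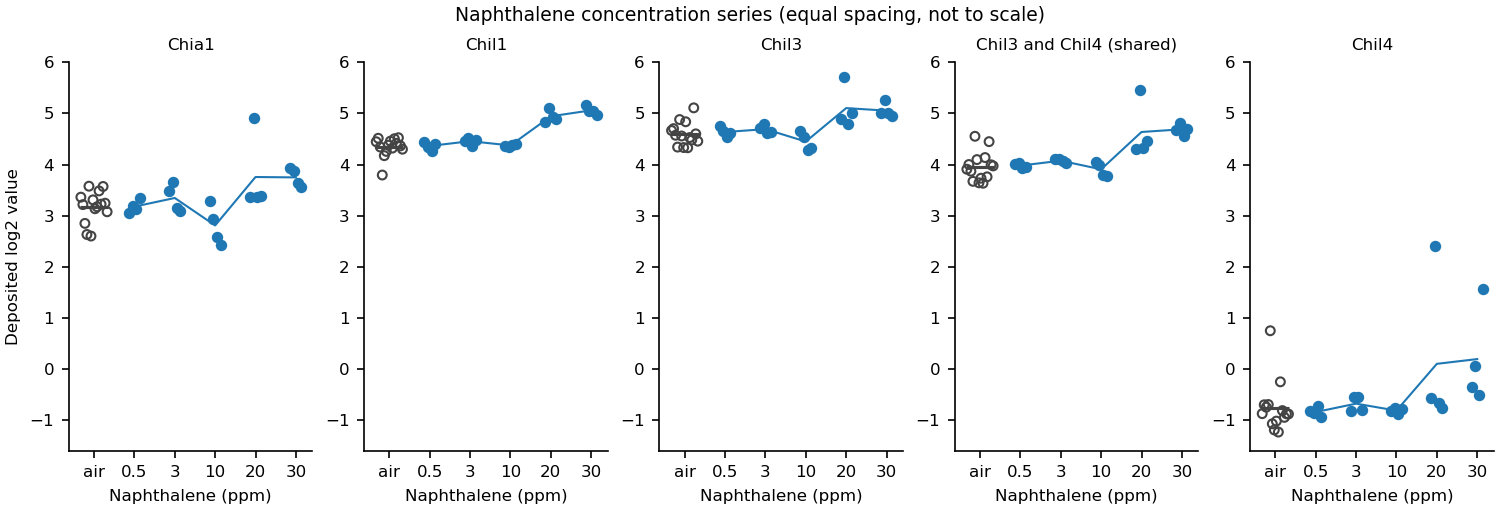
Deposited log2 value of each lung against naphthalene concentration, with the 14 air control lungs (open circles) at the low end and a line through the group means, 1 panel for each probe set. Chil1 is higher in all lungs at 20 and 30 ppm, and in the Chil4 panel 1 lung at 20 ppm (2.40) and 1 at 30 ppm (1.57) stand above every other lung.

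Within the naphthalene series of 20 exposed lungs, all 5 probe sets rose with concentration. The fitted log2 change between 0.5 and 30 ppm was 0.75 ± 0.08 for Chil1 (limma, adjusted p of 7e-07), 0.80 ± 0.16 for the shared probe set (0.000644), 0.52 ± 0.15 for Chil3 (0.00769), 1.13 ± 0.42 for Chil4 (0.0366) and 0.66 ± 0.26 for Chia1 (0.047). In this series 11.3% of all tested probe sets rose and 27.5% fell. Without lung 2 at 20 ppm and lung 4 at 30 ppm, which were chosen after their values were seen, Chil4 still rose, by 0.45 ± 0.11 with an adjusted p of 0.00455, and Chia1 had 0.54 with an adjusted p of 0.0541. Single lungs decided 2 of these trends: the Chia1 trend kept its call for 6 of 20 lungs left out in turn, and the Chil4 trend for 16 of 20. On a log10 concentration axis only Chil1 and the shared probe set passed.

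For Chil1, Chil3 and the shared probe set, every lung at 20 and 30 ppm stood above every lung at the lower concentrations. This was not so for Chil4 or Chia1, and the share of all tested probe sets that separate in this way was not counted. For Chil3 the gap was narrow, between 4.78 in the highest lung at 3 ppm and 4.80 in the lowest at 20 ppm. At 0.5, 3 and 10 ppm the group means of Chil1 were 4.36, 4.46 and 4.37, and Chil4 was -0.84, -0.68 and -0.81. Chil1 was higher at 30 than at 10 ppm by 0.69 (95% interval 0.39 to 0.98, adjusted p of 0.00363 by limma), a comparison chosen after the values were seen, for which 0.563% of all tested probe sets were called higher. Between 20 and 10 ppm the difference was 0.57 (95% interval 0.27 to 0.87, adjusted p of 0.0836), which did not pass. Between 30 and 20 ppm Chil1 differed by 0.12 (95% interval -0.18 to 0.41, adjusted p of 0.999). Chia1 was lowest at 10 ppm, with 3.29, 2.94, 2.58 and 2.43, and was higher at 30 than at 10 ppm by 0.94 (adjusted p of 0.011).

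Vanadium pentoxide and naphthalene differed in Chia1. It was higher with vanadium pentoxide than with 30 ppm naphthalene by 1.23 on the log2 scale (95% interval 0.79 to 1.67, adjusted p of 1.28e-05 by limma), in a comparison added after the values were seen. Leaving out lung 2 at 20 ppm and lung 4 at 30 ppm moved it to 1.17 with an adjusted p of 7.58e-05. In this comparison 4.64% of all tested probe sets were called higher with vanadium pentoxide and 2.8% lower. Chil1 differed by -0.32 (95% interval -0.62 to -0.02, adjusted p of 0.228) and Chil3 by 0.43 (0.04 to 0.82, adjusted p of 0.209), neither of which passed. Chil4 was lower with vanadium pentoxide by -0.74 (adjusted p of 0.0297), and by -0.28 (adjusted p of 0.423) without those lungs. The doses have different units and both exposures share the air lungs.

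Some genes of the mucous and type 2 lists passed in the naphthalene lungs. Over all tested probe sets, 0.821% were called higher at 20 ppm and 1.1% at 30 ppm. Clca1 is on both the mucous and the type 2 response list and is counted in each. Of 6 tested goblet and mucous cell markers, 1 rose at 20 ppm and 2 at 30 ppm. Of 6 tested type 2 cytokine, alarmin and receptor genes, 1 rose at each. At 20 ppm, 2 of 15 type 2 response genes rose: Slc26a4, the anion exchanger pendrin, by 0.97 and the eosinophil chemokine Ccl11 by 0.39 on the log2 scale. At 30 ppm, 3 rose: Clca1, a secreted protein of goblet cells (1.99), Retnla, which encodes the macrophage and epithelial product RELM-alpha (1.52), and Slc26a4 (1.07). The alarmin Il33 rose by 1.20 at 20 ppm and 1.58 at 30 ppm, and the mucin-folding protein Agr2 by 1.52 at 20 ppm and 1.91 at 30 ppm. The mean level of 6 goblet and mucous cell markers lay between 0.0066 and 1.22 at 20 ppm and between 0.55 and 1.23 at 30 ppm, against -0.41 to 0.75 in the air lungs, and their part in the Chil4 values was not tested. At both concentrations, none of the 10 monocyte and recruited macrophage markers passed, and of 15 alveolar macrophage markers Ctsk rose (0.63 at 20 ppm and 0.75 at 30 ppm) and the cholesterol transporter Abcg1 fell (-0.51 at 20 ppm and -0.61 at 30 ppm). Of 10 club cell markers, 1 rose and 3 fell at each concentration. Gsto1 rose (0.86 at 20 ppm and 1.03 at 30 ppm), and Gabrp (-1.04 at 20 ppm and -1.12 at 30 ppm), Cldn10 (-0.68 at 20 ppm and -0.80 at 30 ppm) and Cyp2f2, the P450 that activates naphthalene (-0.45 at 20 ppm and -0.44 at 30 ppm), fell.

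Some of these list calls rest on the lungs that were high in Chil4. Without lung 2, Ccl11 at 20 ppm had 0.18 with an adjusted p of 0.726 and Slc26a4 had 0.47 with an adjusted p of 0.048. Without lung 4, Clca1 at 30 ppm had 1.66 with an adjusted p of 0.273 and Retnla 1.49 with an adjusted p of 0.084, while Agr2 had 1.86 and Il33 1.67, both still called. Leaving out the 3 air arrays with a correlation under 0.98 ended the calls of Clca1 (1.72, adjusted p of 0.329) and Retnla (1.42, adjusted p of 0.0989) at 30 ppm. It also left 1 list gene called lower at each of 20 and 30 ppm, against 4 with all air arrays.

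Chil4 was high in single lungs across the whole series. It was above the median of all deposited values in 10 of the 133 exposed and 58 control lungs. The highest were lung 2 at 20 ppm naphthalene (2.40), lung 4 at 30 ppm naphthalene (1.57), air lung 1 of ACO4 (0.75), lung 1 of the group fed 20000 ppm 1-amino-2,4-dibromoanthraquinone (0.56), lung 2 at 30 ppm naphthalene (0.07) and air lung 1 of ACO5 (-0.25). Of these 6 lungs, 2 breathed air without a chemical. The same 6 lungs held the 6 highest values of Clca1 in the series, from 1.27 to 3.22. In the remaining lungs Clca1 reached at most 0.93, in lung 1 of the corn oil set CCO4, which ranked 11 in Chil4.

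**Figure D4:**
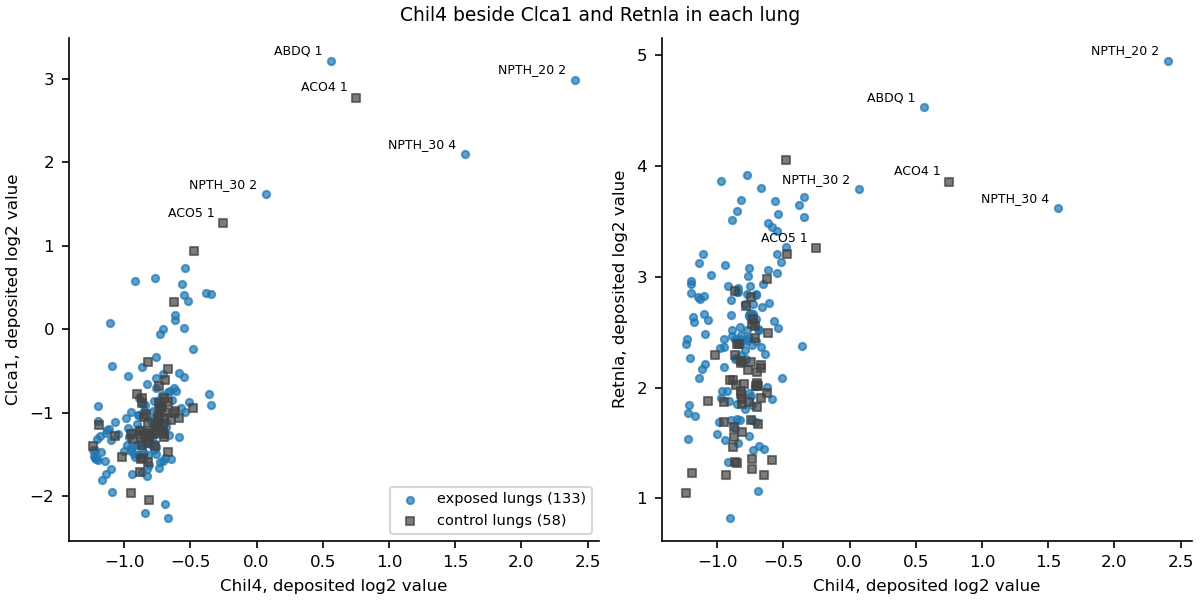
Chil4 against Clca1 (left) and against Retnla (right), both as deposited log2 values, 1 point for each of 133 exposed and 58 control lungs. The 6 lungs highest in Chil4 are named and are also the 6 highest in Clca1, and 2 of them, ACO4 1 and ACO5 1, are air controls.

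Deviations of each lung from its group mean, over all exposed and control lungs, differed between the members in the genes they varied with. They are given as descriptions: lungs share array batches, and the genes were picked as the highest of all tested. Chil4 correlated highest with Clca1 (r = 0.77), then with Rnase2a (0.64), an eosinophil-type ribonuclease, Slc26a4 (0.55), Retnla (0.52) and Ccl11 (0.47). Without the 2 lungs farthest from the median, r was 0.70 for Clca1 and 0.27 for Slc26a4. Chil1 correlated highest with the surfactant protein Sftpd (0.85), the protease Ctsd (0.85), the phosphate transporter Slc34a2 (0.85), Ctsz (0.84) and Anxa2 (0.84). High r was common for Chil1: its r of 0.34 with Fcgbp ranked 9671 of the 27904 tested probe sets. For Chil4, an r of 0.19 with Agr2 ranked 140. The SD of the values on an array ranged between 1.01 and 1.44, and its part in these r values was not tested. Chia1 varied with the proteases Ctsh (0.65) and Napsa (0.65) and with Cdh16 (0.62), Plekhb2 (0.60) and Sdc1 (0.59). Chil3 varied with Ctss (0.78), a protease of antigen-presenting cells, Ear3 (0.76), Ms4a8a (0.75), Ctsl (0.73) and Ctsc (0.73).

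The same deviations were compared between members. Chil3 and the shared probe set had r = 0.92 and Chil4 and the shared probe set had r = 0.27. Chil1 and Chil3 had r = 0.58 and Chia1 and Chil1 had r = 0.52. Chil1 and Chil4 had r = -0.00 over all lungs, and between -0.39 and 0.26 within single array batches. For the log2 fold changes of the 34 exposures, Chil1 and Chil4 had r = 0.71, or 0.45 without the 3 called exposures.

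Over the log2 fold changes of the 34 exposures, which share control sets, other genes had the most similar pattern. Chia1 was closest to the chemokine Ccl6 (r = 0.83), Napsa (0.82), the fatty acid elongase Elovl1 (0.82), Gpnmb (0.80) and Itm2a (0.79). Without vanadium pentoxide r was 0.66 for Ccl6, 0.70 for Napsa, 0.75 for Elovl1, 0.59 for Gpnmb and 0.53 for Itm2a. Chil1 was closest to the lysosomal sterol carrier Npc2 (0.86), the fatty acid binding protein Fabp5 (0.86), Acot7 (0.84), the sterol synthesis enzyme Fdps (0.83) and F7 (0.82), and without the 3 called exposures r was 0.74 for Npc2. Chil3 was closest to Itm2a (0.84), the Fc receptor Fcgr3 (0.83), Tfec (0.82), Ociad2 (0.81) and Cyp51 (0.81). For these Chil3 neighbours, r without the 3 called exposures lay between 0.62 (Itm2a) and 0.68 (Ociad2). Chil4 was closest to Proz (0.82), 9530077C05Rik (0.80), the glucose transporter Slc5a1 (0.80), Resp18 (0.80) and Pbld2 (0.80). Without the 3 called exposures, r for these Chil4 neighbours was 0.67 for Proz, 0.38 for 9530077C05Rik, 0.60 for Slc5a1, 0.57 for Resp18 and 0.43 for Pbld2.

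Methylene chloride, a solvent metabolised by P450 and glutathione transferase, was the series in which Chil1 was lowest. The 5 methylene chloride groups had the 5 lowest Chil1 means of the 48 groups, at 4.01 (100 ppm), 4.03 (500 ppm), 3.89 (2000 ppm), 3.81 (3000 ppm) and 3.91 (4000 ppm). The 21 exposed lungs had a lowest value of 3.65, a median of 3.94 and a highest of 4.26, against 3.79, 4.37 and 4.52 in the 14 air lungs. Each exposed lung lay below the air median, and the ranges overlapped. Log2 fold changes lay between -0.53 at 3000 ppm (adjusted p of 0.0822) and -0.31 at 500 ppm (adjusted p of 0.323), and limma called none.

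Averaged over the 5 groups, a comparison added after the values were seen, Chil1 had a log2 fold change of -0.41 ± 0.07 with an adjusted p of 0.0835 against the weakest air set. In that comparison 0.308% of all tested probe sets were called lower. With the 14 air lungs pooled as 1 group, 4 of the 5 concentrations passed, with adjusted p between 0.00219 and 0.034, and without ACO3 lung 4 Chil1 passed at 3000 ppm (-0.58, adjusted p of 0.0241). Chil1 did not pass as a trend over concentration in the exposed lungs (-0.17 ± 0.10 between 100 and 4000 ppm, adjusted p of 0.191).

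Chia1 was the member that rose over the methylene chloride concentrations. Its group means were 2.82, 2.97, 2.90, 3.33 and 3.64 at 100, 500, 2000, 3000 and 4000 ppm, and the lungs at 4000 ppm ranged from 3.40 to 3.80, with 3 of 4 above the highest air lung of 3.58. The fitted log2 change between 100 and 4000 ppm was 0.73 ± 0.15 (limma, adjusted p of 0.00118), and 22.5% of all tested probe sets rose in this series while 16.7% fell. The call held as each of the 21 lungs was left out, with a change of 0.66 to 0.83. With the air lungs added at 0 ppm it did not pass (0.41, adjusted p of 0.0954), and the air mean was 3.16. At no single concentration did limma call Chia1, and at 4000 ppm the log2 fold change was 0.48 (95% interval 0.12 to 0.83, adjusted p of 0.652 against the weakest air set).

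**Figure D5:**
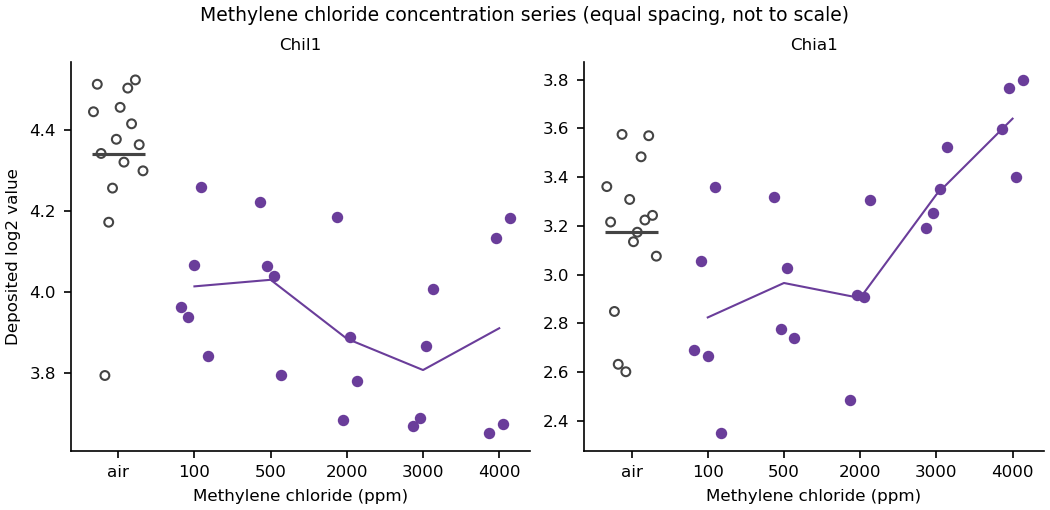
Deposited log2 value of each lung for Chil1 (left) and Chia1 (right) against methylene chloride concentration, with the 14 air control lungs (open circles) at the low end and a line through the means of the exposed groups. Chil1 means lie between 3.81 and 4.03 in the exposed groups, below most air lungs, and Chia1 means reach 3.64 at 4000 ppm.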

How the data were processed

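Lung RNA of each mouse was hybridised to 1 array. Per the labels, RNA was extracted with Trizol, purified on RNeasy columns, biotin-labelled and hybridised to Affymetrix mouse arrays. The authors deposited values that were read as log2, centred by them on each array (array means -0.0027 to 0.0033). Their normalization method and log base are not given in the sources used here. The members and gene lists were chosen with earlier results of these data known. Samples were grouped by their labels, and every comparison used limma 3.58.1 in R 4.3.3: a group-means model over all arrays, on the 27904 probe sets above the median of all values (-0.39) on at least 3 arrays, with Benjamini-Hochberg adjustment over them. A call needed an adjusted p under 0.05 in 1 direction against every control set of the same vehicle and array batch, and the largest of these p-values is printed. Fold changes were taken against the equal-weight average of the sets, and trends were fitted to concentration within a series. The number of arrays limits the precision. Named genes are all members, up to 4 called genes of each list with the largest changes per called exposure, and the 5 genes most correlated with each member over exposures. Genes correlated within groups, uncalled list genes and comparisons between exposures were chosen after values were seen. Symbols and loci come from RefSeq (GRCm38.p6). The test was tried on simulated data. Other normalization, filters, probe set rules, controls, and arrays left out were alternatives. Figures were drawn with matplotlib 3.10.9.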

Additional observations from a re-analysis of the deposited data

Results flagged for a closer look

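Within each group of 4 or 5 lungs, the highest or lowest value was compared with the rest by Dixon's criterion, and 27 of 210 combinations of group and probe set stood apart, 15 low and 12 high. Chance alone marks about 1 group in 20. In the naphthalene group at 20 ppm, lung 2 was high in Chia1 (4.91, others 3.36 to 3.39), in the shared probe set (5.47, others 4.31 to 4.46) and in Chil4 (2.40, others -0.76 to -0.57). Vanadium pentoxide lung 3 was high in Chil1 (5.06, others 4.60 to 4.68).

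Chil4 stood apart on the high side in single lungs of other groups: ABDQ lung 1 (0.56), ACO4 lung 1 (0.75), ACO5 lung 1 (-0.25), CCO4 lung 1 (-0.48) and ETOX lung 2 (-0.97). It was low in DIAZ lung 3 (-0.97) and FCO1 lung 4 (-0.90). ABDQ is 1-amino-2,4-dibromoanthraquinone, ETOX is ethylene oxide, and the sets whose codes begin with ACO, CCO and FCO are air, corn oil and feed controls. CMPH and COUM are exposed groups. The other codes are those of the labels.

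Chil3 was high in ACO5 lung 3 (5.11) and low in ABDQ lung 2 (4.27), CCO3 lung 3 (4.05), CMPH lung 4 (3.54), COUM lung 4 (4.02), DIAZ lung 3 (4.28) and IODO lung 3 (3.94). The shared probe set was also low in ABDQ lung 2 (3.71) and COUM lung 4 (3.53), and it was low in DBET lung 1 (2.23) and ETOX lung 4 (3.92). Chil1 was low in CMPH lung 4 (3.51) and FCO1 lung 4 (4.14) and high in NAAC lung 3 (4.66). Chia1 was low in CCO6 lung 1 (2.74) and high in MACR lung 4 (3.40).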

How the results depend on the processing

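No paired analysis was possible because the labels carry no replicate numbers that tie lungs across groups. The 7 member calls became 12 after quantile normalization within the array batch (9 higher, 3 lower), 19 with matching control arrays pooled (15 higher, 4 lower) and 4 without lung 2 at 20 ppm and lung 4 at 30 ppm naphthalene. The 3 lower calls after quantile normalization were those of Chil1 in DBET and in methylene chloride at 3000 and 4000 ppm. All 7 calls were kept under quantile normalization, without a filter and with pooled controls, and 5 of 7 when each comparison was fitted on its own arrays. The methylene chloride trend called 2 members under quantile normalization, and the naphthalene trend called 2 on a log10 axis. Chil4 at 20 ppm had 0.85 (adjusted p of 0.458) and at 30 ppm 0.95 (0.422) on the arrays of the comparison alone, 0.76 (0.205) and 0.85 (0.0897) without 3 air arrays, and 0.088 (0.883) and 0.49 (0.0927) without both naphthalene lungs, where Chil1 at 20 ppm had 0.55 (0.118). Without the 2 arrays of low RNA integrity, Chil4 at 20 ppm had 0.84 (0.0633). With 1 array left out, the values ranged from 0.55 to 0.64 for Chil1 and 0.088 to 1.14 for Chil4 at 20 ppm, 0.67 to 0.75 and 0.49 to 1.18 at 30 ppm, and with vanadium pentoxide 1.71 to 1.90 (Chia1), 0.83 to 0.93 (Chil3) and 0.95 to 1.08 (shared). The naphthalene trend then called 3 to 5 members. The cause of these differences was not tested.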
